A study of Mus musculus with 25 samples.

Results

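The comparison asked what the loss of p65 adds in regulatory T cells (Treg) that already lack c-Rel. It set 2 unstimulated libraries labelled DKO Treg, of p65 c-Rel DKO genotype, against 2 unstimulated libraries of c-RelKO Treg, which keep p65; these are 4 of the 25 libraries of the series and were chosen by their labels. All were mouse cells of spleen and lymph node on the C57BL/6 strain, and every difference below is DKO minus c-RelKO on cells that lack c-Rel in both arms. Beside them stand 3 unstimulated p65KO Treg and 4 unstimulated WT Treg libraries, and, after 3 h with 2 µg/ml of antibodies to CD3 and CD28 in the presence of IL-2, 2 DKO Treg libraries and 1 c-RelKO Treg library. The labels give no ages, no driver of a recombinase, no deleted exons and no word on pooled animals. They do not say that replicates came from separate animals, so p-values measure the spread between libraries. That spread was pooled over 21 libraries in 10 groups fitted together, most of them outside the 4 compared. The deposited values are FPKM, the fragments of a gene scaled by its length and by the mapped total, without counts. The bounds given with them imply 19.7 to 47.8 M fragments in these 4 libraries.

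NF-kB is a family of transcription factors that bind DNA as dimers. The subunits p65, the product of Rela, and c-Rel, the product of Rel, carry transactivation domains in the canonical pathway. Antigen receptors, co-stimulation and TNF receptors switch this pathway on by removing the IkB inhibitors. In T cells c-Rel is known for its part in switching on Foxp3, the transcription factor that defines Treg. The subunits p65 and c-Rel bind many of the same sites, including those of the inhibitors that shut the pathway off again.

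Named groups of genes differed between DKO and c-RelKO Treg. Several Treg genes and NF-kB feedback genes and most of the listed genes of the resting lymphocyte state and of early T cell receptor (TCR) signalling were lower. Most of the listed cell cycle genes, several type 2 genes, such as Il5 and Il13, and 4 Ifitm genes were higher. Of 11532 genes tested, 2935 were called, 2254 higher and 681 lower in DKO Treg, at a Benjamini-Hochberg adjusted p under 0.05; at least 2-fold changes made up 1068 of the higher and 467 of the lower calls. Among all genes tested this is 25.5% called, 19.5% higher and 5.91% lower, the background for the counts of list members that follow. Both DKO libraries were above both c-RelKO libraries in 5698 of these genes and below both in 2505. Groups that do not overlap are thus common with 2 libraries each, and the rule for the largest changes required no overlap. The median gene was 0.25 higher on the log2(FPKM + 1) scale, and scaling by size factors, which moves that median by 0.24 to 0.01, gave 1195 higher and 1044 lower (10.4% and 9.09% of those tested). Thus the share of calls that are higher depends on the scaling (76.8% as deposited, 53.4% with size factors). The values after ± beside a log2 difference are standard errors of the fit, and FPKM values are given for replicates 1 and 2 in that order.

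Rel (chr11:23641729-23670970, mm9) had 2.06 and 1.96 FPKM in DKO Treg, against 2.09 and 1.76 FPKM in c-RelKO Treg. It had 24.6, 120.4 and 128 FPKM in p65KO Treg, against 27.5, 199.5, 271 and 252 FPKM in WT Treg, so every library with c-Rel was above all 4 libraries without it. Rela (chr19:5637490-5648130, mm9) had 76.1 and 56.3 FPKM in DKO Treg, against 133 and 137 FPKM in c-RelKO Treg. Both DKO libraries were below both c-RelKO libraries (log2 difference -1.03 ± 0.26, adjusted p = 0.0128). In the genotypes that keep c-Rel, Rela had 58, 69.3 and 79.8 FPKM in p65KO Treg, against 64.9, 99.1, 129.7 and 124 FPKM in WT Treg. Gene-level FPKM covers all exons, so exons left by a deletion still count, and the level of Rela is a weak check of the p65 label. The highest adjusted p of calls lost without a library was 0.126 for Rela without DKO replicate 2.

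T cell markers were present in all 4 libraries, but Foxp3, the marker that defines Treg, was low in those labelled DKO Treg, with 8.01 and 21.2 FPKM, against 136 and 254 FPKM in c-RelKO Treg. In bulk RNA, fewer cells that express a gene and less RNA per cell cannot be told apart. The 15 T cell identity genes, such as the CD3 chains, summed to 4004 and 3793 FPKM in DKO Treg and 5120.4 and 3879 FPKM in c-RelKO Treg. Marker levels of other cells were uneven. c-RelKO replicate 2 stood apart: its 10 erythroid markers summed to 20778 FPKM, against 9.62 FPKM in c-RelKO replicate 1 and 17.7 and 40 FPKM in DKO Treg, and its 11 B cell markers to 303 FPKM, against 17.7 FPKM in c-RelKO replicate 1 and 7.83 and 12.6 FPKM in DKO Treg. Its 16 myeloid markers summed to 2065 FPKM, against 503 FPKM in c-RelKO replicate 1 and 286 and 296 FPKM in DKO Treg. DKO replicate 2 had 77.5 FPKM of Prg2, the eosinophil major basic protein, against 0.574 FPKM in DKO replicate 1 and 0.148 and 3.32 FPKM in c-RelKO Treg. Counts of list members that change without c-RelKO replicate 2 are therefore given without it too. In that fit 959 genes were higher and 278 lower (8.37% and 2.43% of those tested).

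**Figure D1:**
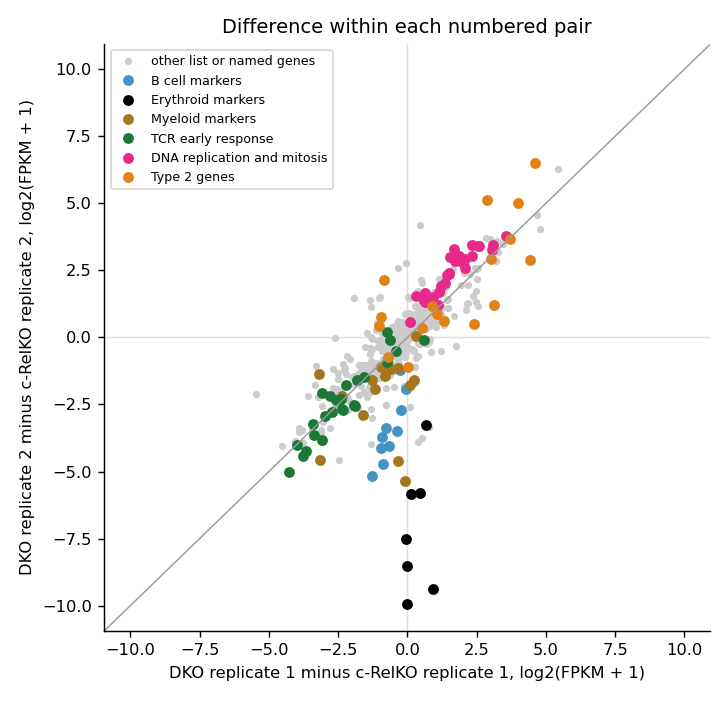
Difference of DKO replicate 1 minus c-RelKO replicate 1 (x axis) against DKO replicate 2 minus c-RelKO replicate 2 (y axis), in log2(FPKM + 1), for the genes of the lists and the named genes; each point is a gene. TCR early genes lie mostly low and replication and mitosis genes high in both pairs, whereas erythroid markers lie near 0 in the first pair (median 0.12) and far below it in the second (median -7.52), which holds c-RelKO replicate 2.

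The same-numbered libraries of the groups also lie in the same run of library numbers, so each numbered pair gives a difference within a run. No label names such a run as a batch. The 25 TCR early genes had a median difference of -2.38 in the first pair and -2.52 in the second, and the 28 replication and mitosis genes one of 1.61 and 2.71. Type 2 genes had medians of 1.32 and 1.17. The medians of B cell markers were -0.71 and -3.60, and those of erythroid markers 0.12 and -7.52, further apart than those of the other 3 lists.

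Several feedback genes of NF-kB were lower in DKO Treg. Of 15 inhibitors and feedback genes, 7 fell and 0 rose, with a median log2 difference of -1.34 beside 0.25 over all genes; without c-RelKO replicate 2, 0 rose and 6 fell. Nfkbie, which codes for the inhibitor IkB epsilon, had 18.5 and 10.9 FPKM in DKO Treg, against 88.7 and 55 FPKM in c-RelKO Treg (log2 difference -2.22 ± 0.40, adjusted p = 0.00201). Traf1, an adaptor of TNF receptors, had 69.8 and 43.9 FPKM in DKO Treg, against 194 and 197 FPKM in c-RelKO Treg (log2 difference -1.80 ± 0.31, adjusted p = 0.0016). Tnip1, a partner of the deubiquitinase A20, had 63 and 55.5 FPKM in DKO Treg, against 158 and 144 FPKM in c-RelKO Treg (log2 difference -1.34 ± 0.25, adjusted p = 0.00258). In each of these genes both DKO libraries were below both c-RelKO libraries. Traf3, which restrains the alternative pathway, was closer between the groups, with 22.1 and 17.5 FPKM in DKO Treg, against 34.4 and 31.2 FPKM in c-RelKO Treg (log2 difference -0.71 ± 0.15, adjusted p = 0.00529). Tnfaip3, which codes for A20 itself, had 163 and 62.3 FPKM in DKO Treg, against 1421 and 740.3 FPKM in c-RelKO Treg and did not pass the test (log2 difference -3.33 ± 1.28, adjusted p = 0.0697), though it did without WT replicate 1, which shares the fit (adjusted p = 0.0113); it was chosen after its values were seen. The other genes of the list that fell were Nfkbia, described with its promoter, Nfkbid, which codes for an atypical IkB protein (-2.60 ± 0.79), and Birc3, a ubiquitin ligase of TNF receptor signalling (-1.37 ± 0.31), and they are named to complete the count. Of calls lost without a library, the highest adjusted p was 0.0858 for Birc3, 0.0764 for Nfkbia, 0.164 for Nfkbid and 0.0768 for Traf3 without DKO replicate 2.

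Of the 5 subunit genes, Rela and Relb fell (0 rose and 0 fell without c-RelKO replicate 2). Relb, a subunit of the alternative pathway, had 51.6 and 33 FPKM in DKO Treg, against 130.3 and 139 FPKM in c-RelKO Treg (log2 difference -1.68 ± 0.41, adjusted p = 0.0102). Nfkb2 had 99.8 and 76.1 FPKM in DKO Treg, against 211 and 219.7 FPKM in c-RelKO Treg and did not pass the test (adjusted p = 0.0836, or 0.0133 without WT replicate 1), and the Nfkb1 groups overlapped, with 379 and 249 FPKM in DKO Treg, against 307 and 422 FPKM in c-RelKO Treg. Of 25 genes known to be induced by NF-kB in immune cells, 4 fell and 0 rose (median -0.79) beside a background of 5.91% lower: Cd83, Myc, Irf1 and Icam1. With size factors, 6 of the 25 fell and 0 rose, beside a background of 9.09% lower. Of these genes, 0 rose and 2 fell without c-RelKO replicate 2. Cd83, a surface protein of activated lymphocytes, had 4.26 and 7.38 FPKM in DKO Treg, against 119 and 136 FPKM in c-RelKO Treg (log2 difference -4.27 ± 0.73, adjusted p = 0.00146), so both c-RelKO libraries were far above both DKO libraries. Myc, the growth regulator, had 44.6 and 43.2 FPKM in DKO Treg, against 237 and 215 FPKM in c-RelKO Treg (log2 difference -2.34 ± 0.55, adjusted p = 0.00864). Irf1, an interferon-regulatory factor, had 165 and 155 FPKM in DKO Treg, against 283 and 271 FPKM in c-RelKO Treg (log2 difference -0.79 ± 0.22, adjusted p = 0.0188). Icam1, an adhesion ligand, had 36.4 and 40.9 FPKM in DKO Treg, against 101 and 90.9 FPKM in c-RelKO Treg (log2 difference -1.29 ± 0.36, adjusted p = 0.019). The calls of Irf1 and Icam1 were lost whichever of the 4 libraries was left out. With 1 of the 4 libraries left out, the highest adjusted p of a lost call was 0.113 for Irf1, 0.0602 for Myc and 0.106 for Relb without DKO replicate 2; 0.0906 for Icam1 without c-RelKO replicate 1.

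The promoters of genes on both sides of the comparison hold letters of a kappa-B site, the DNA element that NF-kB dimers bind. The sequences are RefSeq promoters of GRCm38.p6, 250 bases before to 50 after the start, 5′ to 3′ on the strand of the gene, and the capitals mark GGG, any pair of bases and TTTCC, read on either strand. They are shown because Nfkbia (IkB alpha, the main feedback inhibitor) and Ccl20 (the ligand of Ccr6) were lower and Cxcl3 (a neutrophil-attracting chemokine) was higher in DKO Treg; these were picked for their match after the values were seen. Nfkbia lies at chr12:55492598-55492897 on the minus strand, Ccl20 at chr1:83116516-83116815 on the plus strand and Cxcl3 at chr5:90785851-90786150 on the plus strand.
Nfkbia: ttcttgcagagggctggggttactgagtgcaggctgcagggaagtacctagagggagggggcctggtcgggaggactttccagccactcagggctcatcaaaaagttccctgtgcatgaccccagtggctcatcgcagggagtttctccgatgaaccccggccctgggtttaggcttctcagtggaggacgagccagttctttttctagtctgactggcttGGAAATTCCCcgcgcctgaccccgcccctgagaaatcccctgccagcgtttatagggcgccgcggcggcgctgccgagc
Ccl20: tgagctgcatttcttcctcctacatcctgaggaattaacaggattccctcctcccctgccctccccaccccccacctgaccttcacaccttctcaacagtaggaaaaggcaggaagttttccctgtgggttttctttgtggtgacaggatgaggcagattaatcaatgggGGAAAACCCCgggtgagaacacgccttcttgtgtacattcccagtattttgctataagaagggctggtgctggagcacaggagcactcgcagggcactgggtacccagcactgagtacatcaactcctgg
Cxcl3: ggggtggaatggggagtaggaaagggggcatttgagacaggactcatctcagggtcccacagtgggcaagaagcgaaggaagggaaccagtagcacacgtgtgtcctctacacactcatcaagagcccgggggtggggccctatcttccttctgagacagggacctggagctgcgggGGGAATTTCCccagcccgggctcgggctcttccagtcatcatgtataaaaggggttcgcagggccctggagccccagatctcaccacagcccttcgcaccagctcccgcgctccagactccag
The match started 29 bases before the start in Nfkbia, 80 in Ccl20 and 73 in Cxcl3. This motif was in 4 of the 14 feedback genes with a promoter and in 3 of 19 target genes, against 1.89% of 27025 genes. A match is a description of these letters and not a site. Both lists were chosen as NF-kB genes, so these shares say nothing about the difference between the genotypes. Nfkbia had 162 and 128 FPKM in DKO Treg, against 713 and 639 FPKM in c-RelKO Treg (log2 difference -2.22 ± 0.53, adjusted p = 0.00898). Ccl20 had 0 and 0.136 FPKM in DKO Treg, against 12.6 and 16.5 FPKM in c-RelKO Treg (log2 difference -3.86 ± 0.76, adjusted p = 0.00322). Cxcl3 went the other way, with 115 and 31.3 FPKM in DKO Treg, against 3.18 and 0.941 FPKM in c-RelKO Treg (log2 difference 4.43 ± 0.57, adjusted p = 0.000315).

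Foxp3 was among the largest falls. Foxp3 (chrX:7156802-7172369, mm9) had 8.01 and 21.2 FPKM in DKO Treg, against 136 and 254 FPKM in c-RelKO Treg (log2 difference -3.73 ± 0.50, adjusted p = 0.000371), with -3.93 in the first pair and -3.52 in the second. Both DKO libraries were far below both c-RelKO libraries, and DKO replicate 2 had more than DKO replicate 1. Of 35 Treg signature genes, 9 fell and 2 rose (median -0.34), and without c-RelKO replicate 2, 1 rose and 4 fell.

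Members of the signature moved in both directions. Lower calls made up 25.7% of the list and higher calls 5.71%, beside 5.91% and 19.5% of all genes tested. Folr4, a folate receptor family member of Treg, had 68.1 and 71 FPKM in DKO Treg, against 361 and 306 FPKM in c-RelKO Treg (log2 difference -2.24 ± 0.39, adjusted p = 0.00176). Ikzf2, the Ikaros family factor Helios, had 19.8 and 27.4 FPKM in DKO Treg, against 45.5 and 54.2 FPKM in c-RelKO Treg (log2 difference -1.06 ± 0.20, adjusted p = 0.00226). The other genes that fell were Cd83, Lrrc32, which displays latent TGF-beta on Treg (-3.09 ± 0.83), Itgb8, an integrin chain that frees active TGF-beta (-3.08 ± 0.69), Il10, an inhibitory cytokine (-2.40 ± 0.80), Gpr83 (-2.24 ± 0.66) and Swap70 (-2.28 ± 0.67). The 2 that rose were Entpd1, the ectonucleotidase CD39 (0.87 ± 0.25), and Fgl2, a secreted inhibitor of T cells (1.85 ± 0.55); with size factors neither passed (adjusted p = 0.0859 and 0.0623). These 7 genes outside the rule were named to complete the counts. Il2ra, the high-affinity IL-2 receptor chain, had 459.7 and 454 FPKM in DKO Treg, against 244 and 333 FPKM in c-RelKO Treg. Tnfrsf18 (GITR) had 608 and 494 FPKM in DKO Treg, against 612 and 540.0 FPKM in c-RelKO Treg. Neither of these receptor genes passed the test (adjusted p = 0.327 and 0.933), and the Tnfrsf18 groups overlapped; both were chosen after their values were seen. The highest adjusted p of calls lost without a library was 0.214 for Fgl2, 0.211 for Gpr83, 0.153 for Il10 and 0.178 for Swap70 without DKO replicate 1; 0.206 for Entpd1 without c-RelKO replicate 1; 0.0558 for Itgb8 and 0.112 for Lrrc32 without c-RelKO replicate 2. The log2 difference became 0.55 for Entpd1 without c-RelKO replicate 1, 1.17 for Fgl2 without DKO replicate 1 and -1.37 for Gpr83 without DKO replicate 1.

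**Figure D2:**
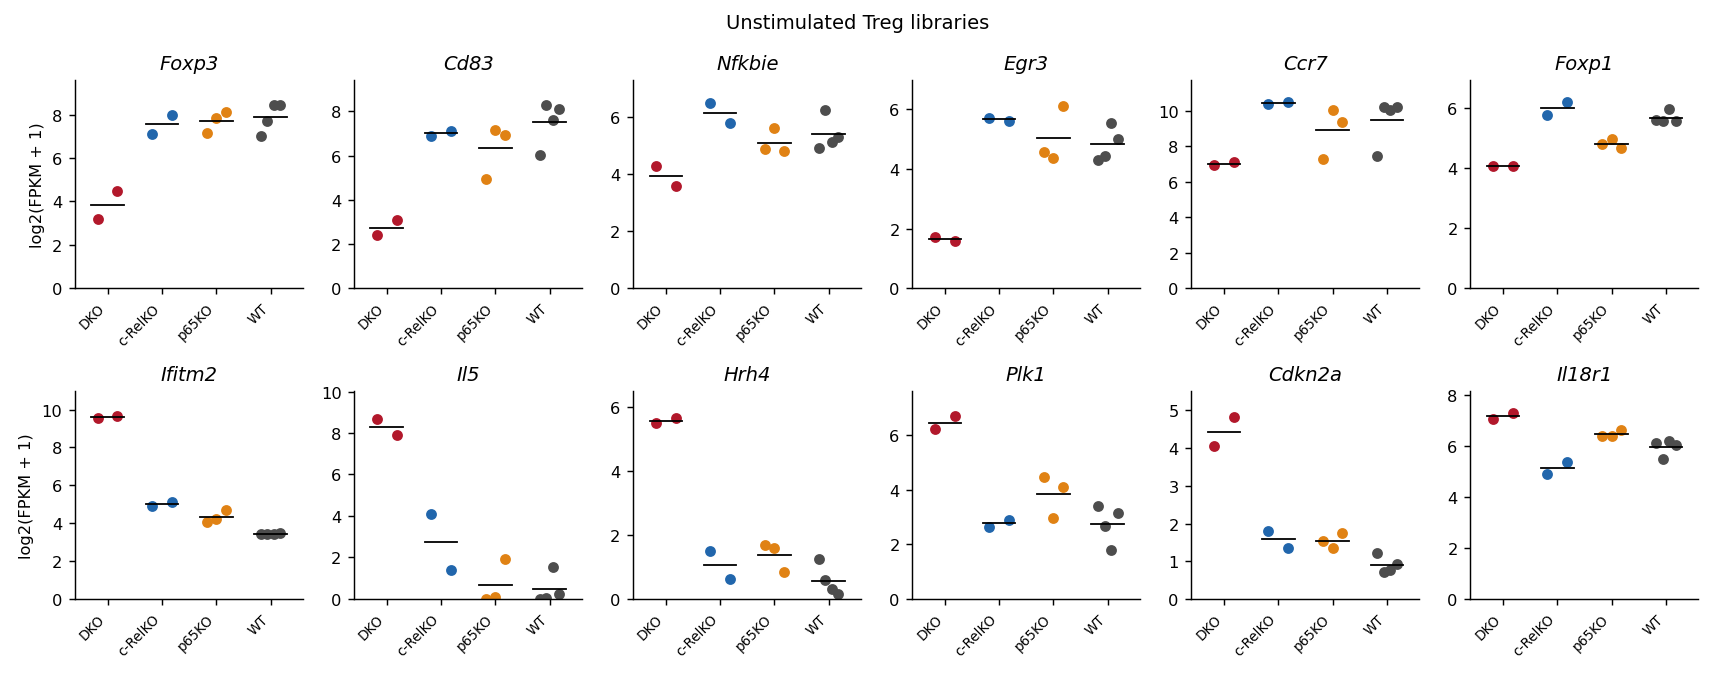
log2(FPKM + 1) (y axis) of 12 genes in each unstimulated Treg library (points), by genotype (x axis), with the mean of the log values (line). Foxp3, Cd83, Nfkbie, Egr3, Ccr7 and Foxp1 are lowest and Ifitm2, Il5, Hrh4, Plk1, Cdkn2a and Il18r1 highest in the 2 DKO libraries; Ifitm2 had 764 and 819 FPKM in DKO Treg, against 28.7 and 33.7 FPKM in c-RelKO Treg.

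Most early response genes of TCR signalling were lower in DKO Treg, and whether TCR signalling or handling of the cells differed was not tested. Of 25 genes, 16 fell and 0 rose, with a median log2 difference of -2.49; without c-RelKO replicate 2, 0 rose and 12 fell. Egr3, a zinc finger factor induced by the TCR, had 2.3 and 2.02 FPKM in DKO Treg, against 51.5 and 47.5 FPKM in c-RelKO Treg (log2 difference -4.0 ± 0.47, adjusted p = 0.000208), and its relative Egr2 had 5.86 and 3.32 FPKM in DKO Treg, against 70.2 and 52.7 FPKM in c-RelKO Treg (log2 difference -3.50 ± 0.52, adjusted p = 0.000626). Zfp36, which destabilises cytokine mRNAs, had 44.9 and 33.4 FPKM in DKO Treg, against 300.2 and 236 FPKM in c-RelKO Treg (log2 difference -2.75 ± 0.26, adjusted p = 7.15e-05). Zfp36l1, of the same family, had 70.3 and 73.6 FPKM in DKO Treg, against 422 and 373 FPKM in c-RelKO Treg (log2 difference -2.45 ± 0.35, adjusted p = 0.000563). In each of these genes the c-RelKO libraries were well above both DKO libraries. The nuclear receptors Nr4a1 and Nr4a3 were at high levels in c-RelKO Treg: Nr4a1 had 93.7 and 51 FPKM in DKO Treg, against 1209 and 973 FPKM in c-RelKO Treg (log2 difference -3.95 ± 1.11, adjusted p = 0.0208). Nr4a3 had 45.7 and 20.1 FPKM in DKO Treg, against 891 and 674 FPKM in c-RelKO Treg (log2 difference -4.63 ± 1.55, adjusted p = 0.0424). Both calls were lost whichever of the 4 libraries was left out. Among calls lost on leaving out a library, the highest adjusted p was 0.134 for Nr4a1 and 0.205 for Nr4a3 without DKO replicate 2.

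Most genes of the resting lymphocyte state fell. Of 18, 14 fell and 0 rose (median -1.57), and without c-RelKO replicate 2, 0 rose and 8 fell. Foxp1, a forkhead factor of quiescence, had 15.8 and 15.9 FPKM in DKO Treg, against 54.6 and 72.9 FPKM in c-RelKO Treg (log2 difference -1.93 ± 0.19, adjusted p = 7.47e-05). Foxo1 had 39.1 and 36 FPKM in DKO Treg, against 116 and 149 FPKM in c-RelKO Treg (log2 difference -1.78 ± 0.24, adjusted p = 0.000358). Foxo3 had 10.3 and 10.3 FPKM in DKO Treg, against 30.1 and 31.2 FPKM in c-RelKO Treg (log2 difference -1.49 ± 0.29, adjusted p = 0.00317). Neither DKO library reached a c-RelKO library in these forkhead genes. Lef1, a factor of naive T cells, had 23.1 and 29.5 FPKM in DKO Treg, against 55 and 66.7 FPKM in c-RelKO Treg (log2 difference -1.18 ± 0.23, adjusted p = 0.0027). The list shares Bach2, Il7r, Lef1, Satb1 and Tcf7 with 15 genes known to be higher in conventional T cells than in Treg, of which 7 fell and 0 rose (median -1.11), while 0 rose and 3 fell without c-RelKO replicate 2. Among them, Actn1, a cytoskeletal crosslinker, had 6.04 and 15.3 FPKM in DKO Treg, against 44.8 and 59.3 FPKM in c-RelKO Treg (log2 difference -2.29 ± 0.42, adjusted p = 0.00209). Satb1, a chromatin organiser, had 36.9 and 52.3 FPKM in DKO Treg, against 231 and 225 FPKM in c-RelKO Treg (log2 difference -2.35 ± 0.50, adjusted p = 0.00488).

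Homing receptors moved in both directions, with 16% of the list called higher and 16% lower, beside 19.5% and 5.91% of all genes tested. Of 25 chemokine receptor and homing genes, 4 rose and 4 fell, and 2 rose and 2 fell without c-RelKO replicate 2. Ccr7, the receptor that guides T cells into lymph nodes, had 120.3 and 134 FPKM in DKO Treg, against 1328 and 1421 FPKM in c-RelKO Treg (log2 difference -3.42 ± 0.85, adjusted p = 0.0115), a call lost whichever of the 4 libraries was left out. Cxcr5, which guides cells to B cell follicles, had 1.56 and 1.4 FPKM in DKO Treg, against 21.3 and 34.5 FPKM in c-RelKO Treg (log2 difference -3.51 ± 0.36, adjusted p = 9.34e-05). Ccr6 had 1.71 and 3.06 FPKM in DKO Treg, against 22.7 and 43.6 FPKM in c-RelKO Treg (log2 difference -3.29 ± 0.41, adjusted p = 0.000258). For Cxcr5 and Ccr6, genes that B cells also express, B cell markers summed to 7.83 and 12.6 FPKM in DKO Treg, against 17.7 and 303 FPKM in c-RelKO Treg, and c-RelKO replicate 2 was the higher of its pair for both genes. Their part in these differences was not tested. Without c-RelKO replicate 2 the log2 differences were -3.17 for Cxcr5 and -2.84 for Ccr6 (adjusted p = 0.00211 and 0.00475). In the other direction, Gpr15, a receptor of homing to the large intestine, had 25.8 and 31.3 FPKM in DKO Treg, against 3.61 and 4.38 FPKM in c-RelKO Treg (log2 difference 2.56 ± 0.56, adjusted p = 0.00544). Ccr1 had 9.38 and 5.26 FPKM in DKO Treg, against 0.884 and 1.53 FPKM in c-RelKO Treg (log2 difference 1.88 ± 0.36, adjusted p = 0.00264). The rises are completed by Cxcr6 (2.10 ± 0.69) and Itgb1, an integrin chain (1.98 ± 0.48). With size factors Cxcr6 did not pass (adjusted p = 0.0717), and 3 of the 25 genes rose and 5 fell. Of calls lost without a library, the highest adjusted p was 0.0659 for Ccr7 and 0.0527 for Gpr15 without DKO replicate 2; 0.336 for Cxcr6 and 0.104 for Itgb1 without c-RelKO replicate 2. The log2 difference became 1.08 for Cxcr6 without c-RelKO replicate 2.

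Several type 2 genes were higher in DKO Treg. Of 17 tested, 7 rose and 0 fell (median 1.03), and without c-RelKO replicate 2, 5 rose and 0 fell. Il5, the eosinophil growth factor, had 412 and 239 FPKM in DKO Treg, against 15.8 and 1.63 FPKM in c-RelKO Treg (log2 difference 5.57 ± 0.90, adjusted p = 0.00113). Il13, a cytokine of barrier tissues, had 299 and 228 FPKM in DKO Treg, against 39.9 and 5.53 FPKM in c-RelKO Treg (log2 difference 4.0 ± 1.03, adjusted p = 0.0132). Both cytokines were well above c-RelKO Treg in each DKO library, while the c-RelKO libraries differed widely from each other. Hrh4, a histamine receptor, had 44.5 and 49 FPKM in DKO Treg, against 1.85 and 0.555 FPKM in c-RelKO Treg (log2 difference 4.50 ± 0.37, adjusted p = 2.13e-05). Cysltr1, a leukotriene receptor, had 113 and 69.1 FPKM in DKO Treg, against 7.8 and 4.55 FPKM in c-RelKO Treg (log2 difference 3.67 ± 0.43, adjusted p = 0.000206). Hdc, which makes histamine, had 103 and 53.6 FPKM in DKO Treg, against 3.87 and 6.47 FPKM in c-RelKO Treg (log2 difference 3.64 ± 0.64, adjusted p = 0.00181). Pparg, a nuclear receptor, had 31.3 and 16.3 FPKM in DKO Treg, against 2.98 and 1.28 FPKM in c-RelKO Treg (log2 difference 2.97 ± 0.36, adjusted p = 0.000254). Il9, a growth factor of mast cells, completes the count with 20.4 and 5.42 FPKM in DKO Treg, against 1.42 and 1.75 FPKM in c-RelKO Treg (log2 difference 2.18 ± 0.58, adjusted p = 0.0154). Il4 did not pass, with 50.5 and 30.2 FPKM in DKO Treg, against 92 and 6.11 FPKM in c-RelKO Treg (adjusted p = 0.687), nor did Gata3, the lineage factor of type 2 T cells, with 170.2 and 100.1 FPKM in DKO Treg, against 67.8 and 66 FPKM in c-RelKO Treg (adjusted p = 0.121); both were chosen after their values were seen. Several of these genes are also expressed by mast cells, basophils and eosinophils. The 11 markers of those cells summed to 8.84 and 99.3 FPKM in DKO Treg and 6.25 and 21.6 FPKM in c-RelKO Treg, and none of the 6 tested was called. Their part in these differences was not tested. With 1 of the 4 libraries left out, the highest adjusted p of a lost call was 0.152 for Il9 without DKO replicate 1; 0.135 for Il13 without c-RelKO replicate 2. The log2 difference then was 1.32 for Il9 without DKO replicate 1.

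Other effector groups were mixed. Of the type 1 and cytotoxic genes, 21.1% were called higher and 15.8% lower, beside 19.5% and 5.91% of all genes tested. Of 19 type 1 and cytotoxic genes, 4 rose and 3 fell (median 0.31); 3 rose and 1 fell without c-RelKO replicate 2, and 2 rose and 3 fell with size factors. The receptor chains of IL-18 rose: Il18r1 had 134 and 158 FPKM in DKO Treg, against 28.9 and 40.5 FPKM in c-RelKO Treg (log2 difference 2.06 ± 0.27, adjusted p = 0.000363). Il18rap had 63.9 and 43.3 FPKM in DKO Treg, against 10.2 and 8.82 FPKM in c-RelKO Treg (log2 difference 2.35 ± 0.35, adjusted p = 0.000673). Xcl1, a chemokine for dendritic cells, had 3.18 and 1.43 FPKM in DKO Treg, against 183 and 9.59 FPKM in c-RelKO Treg (log2 difference -3.79 ± 1.13, adjusted p = 0.0261), and was far higher in c-RelKO replicate 1 than in replicate 2. The other falls were Eomes, a T-box factor (-1.13 ± 0.24), and Prf1, perforin (-2.18 ± 0.66); Tbx21, the type 1 lineage factor T-bet (1.01 ± 0.34), and Gzma, a granzyme (2.11 ± 0.70), rose, and neither passed with size factors (adjusted p = 0.126 and 0.0696). Of 10 type 17 genes, 5 fell and 1 rose (median -1.24): Ccr6, Ccl20, Il22 (-2.60 ± 0.70) and the low-level receptors Il23r (0.0452 and 0.364 FPKM in DKO Treg, against 1.87 and 2.18 FPKM in c-RelKO Treg) and Il1r1 (0.217 and 0.463 FPKM in DKO Treg, against 1.87 and 2.05 FPKM in c-RelKO Treg). The gene that rose was Ahr, the aryl hydrocarbon receptor (1.27 ± 0.40). Its adjusted p was 0.11 with size factors, and its call was lost whichever of the 4 libraries was left out. Of these type 17 genes, 0 rose and 2 fell without c-RelKO replicate 2, and 0 rose and 6 fell with size factors; Il23r and Il1r1 missed the filter on low values, and were not tested, when either c-RelKO library was left out. Among calls lost on leaving out a library, the highest adjusted p was 0.175 for Ahr and 0.129 for Prf1 without DKO replicate 1; 0.307 for Gzma and 0.272 for Xcl1 without c-RelKO replicate 1; 0.0505 for Eomes, 0.154 for Il22 and 0.268 for Tbx21 without c-RelKO replicate 2. The log2 difference became 1.21 for Gzma without c-RelKO replicate 1, -1.73 for Xcl1 without c-RelKO replicate 1 and -5.85 for Xcl1 without c-RelKO replicate 2.

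Of 29 effector Treg genes, 7 rose and 1 fell (median 0.69), while 4 rose and 0 fell without c-RelKO replicate 2, and 4 rose and 4 fell with size factors. Havcr2, the inhibitory receptor TIM-3, had 34 and 66.3 FPKM in DKO Treg, against 5.53 and 10.1 FPKM in c-RelKO Treg (log2 difference 2.51 ± 0.42, adjusted p = 0.00141). Batf, a factor of effector T cells, had 139 and 152 FPKM in DKO Treg, against 76.2 and 56.3 FPKM in c-RelKO Treg (log2 difference 1.14 ± 0.21, adjusted p = 0.00221). Id2, an inhibitor of E proteins, had 219.9 and 252 FPKM in DKO Treg, against 108 and 77.2 FPKM in c-RelKO Treg (log2 difference 1.35 ± 0.25, adjusted p = 0.00242). In these genes, which all rose, both DKO libraries were above both c-RelKO libraries. Of the whole list 24.1% was called higher, near the 19.5% of all genes tested.

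Most Ifitm genes, which code for small interferon-induced membrane proteins, were higher in DKO Treg. Of the 5 tested, 4 rose (median 3.40), and the same number without c-RelKO replicate 2. Ifitm1 had 126 and 421 FPKM in DKO Treg, against 1.9 and 4.41 FPKM in c-RelKO Treg (log2 difference 5.87 ± 0.83, adjusted p = 0.00049). Ifitm2 had 764 and 819 FPKM in DKO Treg, against 28.7 and 33.7 FPKM in c-RelKO Treg (log2 difference 4.63 ± 0.21, adjusted p = 4.32e-08). Ifitm3 had 267 and 447 FPKM in DKO Treg, against 27.7 and 36.6 FPKM in c-RelKO Treg (log2 difference 3.40 ± 0.73, adjusted p = 0.00495). Ifitm5 was at low levels, with 1.24 and 2.58 FPKM in DKO Treg, against 0 and 0 FPKM in c-RelKO Treg. These genes are close copies, and how the authors' software divided reads between them is not recorded. Among 20 other interferon-stimulated genes, 1 rose and 2 fell (median -0.36), and 2 rose and 1 fell without c-RelKO replicate 2, and 1 rose and 5 fell with size factors. Gbp2, a GTPase, rose (log2 difference 1.73 ± 0.40, adjusted p = 0.00789). Isg15, a ubiquitin-like modifier, had 40.3 and 29.1 FPKM in DKO Treg, against 101 and 79.2 FPKM in c-RelKO Treg (log2 difference -1.36 ± 0.28, adjusted p = 0.00437). Rsad2 had 1.12 and 0.46 FPKM in DKO Treg, against 4.28 and 21.9 FPKM in c-RelKO Treg (log2 difference -2.64 ± 0.63, adjusted p = 0.00944). The highest adjusted p of calls lost without a library was 0.0585 for Ifitm3 and 0.0611 for Isg15 without DKO replicate 2; 0.085 for Gbp2 without c-RelKO replicate 1; 0.111 for Rsad2 without c-RelKO replicate 2. The log2 difference became -1.58 for Rsad2 without c-RelKO replicate 2.

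**Figure D3:**
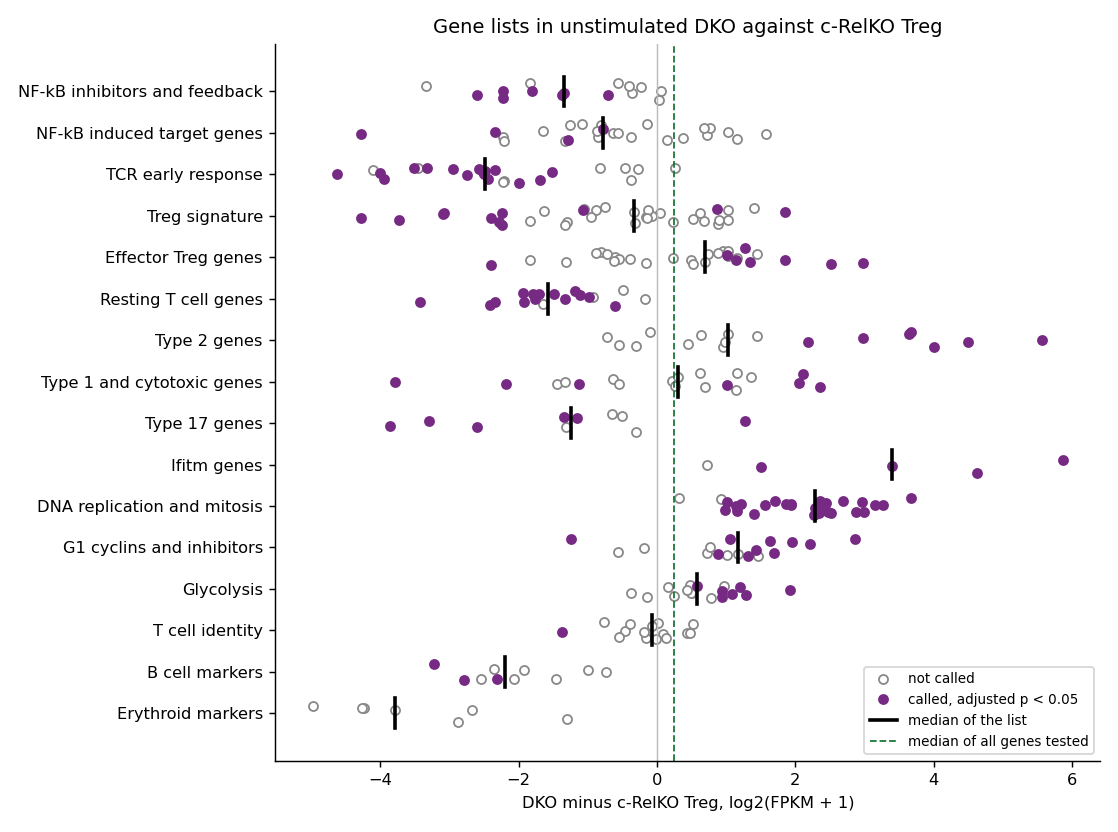
log2 difference of DKO minus c-RelKO Treg (x axis) for every tested member (points) of 16 gene lists (rows); filled points were called, thick bars are list medians and the dashed line is the median of all genes tested (0.25). Replication and mitosis genes all lie right of 0 (median 2.28), TCR early genes mostly to the left (median -2.49), and all B cell markers left of 0.

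Cell cycle genes were higher in DKO Treg. Of 28 replication and mitosis genes, 26 rose and 0 fell, with a median log2 difference of 2.28; with size factors 24 rose, and without c-RelKO replicate 2, 19. Aurka, a mitotic kinase, had 56.1 and 80 FPKM in DKO Treg, against 5.88 and 7.51 FPKM in c-RelKO Treg (log2 difference 3.15 ± 0.39, adjusted p = 0.000264). Plk1, another, had 72.5 and 101 FPKM in DKO Treg, against 5.23 and 6.39 FPKM in c-RelKO Treg (log2 difference 3.67 ± 0.54, adjusted p = 0.000621). Ccnb1, the mitotic cyclin, had 45.3 and 44.9 FPKM in DKO Treg, against 4.45 and 3.22 FPKM in c-RelKO Treg (log2 difference 3.27 ± 0.56, adjusted p = 0.00154). Mcm6, part of the replicative helicase, had 184 and 220.3 FPKM in DKO Treg, against 85.1 and 94 FPKM in c-RelKO Treg (log2 difference 1.16 ± 0.15, adjusted p = 0.000297). Rrm1, a subunit of ribonucleotide reductase, had 114 and 152 FPKM in DKO Treg, against 49.1 and 39.3 FPKM in c-RelKO Treg (log2 difference 1.56 ± 0.20, adjusted p = 0.000315). No DKO value of these genes overlapped a c-RelKO value, as in most genes tested. Mitotic genes Prr11 (3.30 ± 0.40) and Fam64a (3.27 ± 0.50) were among the largest rises too.

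Promoters of mitotic genes are known for CCAAT boxes, which NF-Y binds, and that of Ccnb1 (chr13:100786437-100786736 on the minus strand, RefSeq, GRCm38.p6, with CCAAT on either strand in capitals) is shown as the example among the largest rises.
Ccnb1: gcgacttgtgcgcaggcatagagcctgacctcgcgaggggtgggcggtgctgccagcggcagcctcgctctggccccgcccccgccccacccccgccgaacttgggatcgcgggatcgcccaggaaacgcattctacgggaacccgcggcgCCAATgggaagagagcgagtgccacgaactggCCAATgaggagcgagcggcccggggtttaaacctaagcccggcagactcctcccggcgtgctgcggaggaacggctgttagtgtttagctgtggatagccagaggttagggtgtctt
It held 2 matches, starting 99 and 67 bases before the start. CCAAT was in 18 of 23 replication and mitosis genes with a promoter (78.3%), against 41.1% of all genes with one, and 12 of the 23 (52.2%) held 2 or more, against 13.3%. These shares describe a chosen list and say nothing about the difference between the genotypes.

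Of 17 G1 cyclin, kinase and inhibitor genes, 9 rose and 1 fell (median 1.18), and 5 rose and 0 fell without c-RelKO replicate 2, and 7 rose and 2 fell with size factors. Genes that code for inhibitors of CDK4 and CDK6 were among the rises. Cdkn2a had 15.7 and 27.1 FPKM in DKO Treg, against 2.52 and 1.54 FPKM in c-RelKO Treg (log2 difference 2.86 ± 0.29, adjusted p = 9.34e-05). Gene-level FPKM does not tell which transcript of Cdkn2a was higher. Cdkn2b had 7.53 and 7.51 FPKM in DKO Treg, against 1.21 and 1.2 FPKM in c-RelKO Treg (log2 difference 1.95 ± 0.23, adjusted p = 0.000231). Cdkn2c had 47.3 and 57 FPKM in DKO Treg, against 10.8 and 10.1 FPKM in c-RelKO Treg (log2 difference 2.21 ± 0.33, adjusted p = 0.000626). Their target Cdk6 had 61.5 and 56.5 FPKM in DKO Treg, against 13.2 and 23.5 FPKM in c-RelKO Treg (log2 difference 1.69 ± 0.31, adjusted p = 0.00243). Of 17 glycolysis genes, 7 rose and 0 fell (median 0.58), and 4 rose and 0 fell without c-RelKO replicate 2. Examples were Ldha, lactate dehydrogenase, with 768 and 651 FPKM in DKO Treg, against 394 and 281 FPKM in c-RelKO Treg (log2 difference 1.08 ± 0.22, adjusted p = 0.00336), and Pkm2, pyruvate kinase, with 549.8 and 600.4 FPKM in DKO Treg, against 341 and 263 FPKM in c-RelKO Treg (log2 difference 0.94 ± 0.18, adjusted p = 0.00265). In both genes the DKO libraries were above the c-RelKO libraries. With size factors, 5 of the 17 glycolysis genes rose and 0 fell (median 0.30). Of 16 cholesterol genes, 1 rose and 2 fell (median -0.0094), and 0 rose and 1 fell without c-RelKO replicate 2, and 0 rose and 2 fell with size factors. Lss rose (0.89 ± 0.27) but did not pass with size factors (adjusted p = 0.0577), and Mvk fell (-0.62 ± 0.20). Of calls lost without a library, the highest adjusted p was 0.232 for Lss and 0.239 for Mvk without DKO replicate 2.

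Among receptors, 4 of 13 TNF receptor family genes fell and 1 rose; 0 rose and 4 fell without c-RelKO replicate 2. Cd27, a co-stimulatory receptor, had 12 and 22.9 FPKM in DKO Treg, against 109.7 and 139 FPKM in c-RelKO Treg (log2 difference -2.82 ± 0.36, adjusted p = 0.000297). Fas, the death receptor, had 10.2 and 18.6 FPKM in DKO Treg, against 104 and 91.2 FPKM in c-RelKO Treg (log2 difference -2.73 ± 0.43, adjusted p = 0.000934). Tnfrsf1a and Tnfrsf1b, the receptors of TNF, had log2 differences of -1.75 ± 0.31 and -1.62 ± 0.36. The gene that rose was Tnfrsf8, or CD30 (1.47 ± 0.35). On the ligand side, 2 of 13 TNF family genes rose, Tnfsf10 (TRAIL) with 50.3 and 32.6 FPKM in DKO Treg, against 8.13 and 4.77 FPKM in c-RelKO Treg (log2 difference 2.52 ± 0.52, adjusted p = 0.00412) and Tnfsf13b (BAFF) with 7.5 and 4.55 FPKM in DKO Treg, against 0.654 and 0.882 FPKM in c-RelKO Treg (log2 difference 1.96 ± 0.35, adjusted p = 0.00178); for this list, 2 rose and 0 fell without c-RelKO replicate 2, and 2 rose and 2 fell with size factors. The share of TNF ligand genes called higher was 15.4%, beside 19.5% of all genes tested, and the list median was -0.63. Of 15 checkpoint and co-stimulatory receptors, 2 rose and 3 fell (13.3% and 20%). Cd200r1 had 53.3 and 47.1 FPKM in DKO Treg, against 10.2 and 8.29 FPKM in c-RelKO Treg (log2 difference 2.32 ± 0.30, adjusted p = 0.000315). Slamf1 had 24.7 and 32.2 FPKM in DKO Treg, against 128 and 145 FPKM in c-RelKO Treg (log2 difference -2.23 ± 0.48, adjusted p = 0.00526). Btla had 13.3 and 15.7 FPKM in DKO Treg, against 40.7 and 36.5 FPKM in c-RelKO Treg (log2 difference -1.36 ± 0.23, adjusted p = 0.00129). Havcr2 (higher) and Cd96 (-1.78 ± 0.61, lower) complete the counts. The call of Cd96 was lost whichever of the 4 libraries was left out. Of 8 common gamma-chain receptor genes 1 was called (3 with size factors, all lower). It was Il21r, the IL-21 receptor, with 46.6 and 51 FPKM in DKO Treg, against 271 and 152 FPKM in c-RelKO Treg (log2 difference -2.03 ± 0.33, adjusted p = 0.00112). With 1 of the 4 libraries left out, the highest adjusted p of a lost call was 0.0806 for Tnfrsf1b and 0.0882 for Tnfrsf8 without DKO replicate 2; 0.256 for Cd96 without c-RelKO replicate 1.

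Of 17 apoptosis regulators, 5 rose and 4 fell, and 2 rose and 1 fell without c-RelKO replicate 2, and 2 rose and 4 fell with size factors. Beside Fas, the survival genes Bcl2 (-0.61 ± 0.21) and Mcl1 (-0.83 ± 0.22) and the killer gene Bcl2l11 (-1.02 ± 0.35) fell, and Bak1, a pore-forming killer, had 84.3 and 80 FPKM in DKO Treg, against 35.2 and 36.4 FPKM in c-RelKO Treg (log2 difference 1.18 ± 0.23, adjusted p = 0.00329). Bad (1.12 ± 0.26), Bax (1.13 ± 0.32) and Xiap (0.68 ± 0.17) rose too, and with size factors Bak1 and Bad kept their call and Bax and Xiap did not. Bcl2, Mcl1, Bcl2l11, Bax and Xiap do not follow from the naming rule. Among calls lost on leaving out a library, the highest adjusted p was 0.463 for Bcl2 without DKO replicate 1; 0.0765 for Bad, 0.176 for Bax, 0.296 for Bcl2l11 and 0.0838 for Mcl1 without DKO replicate 2; 0.0932 for Xiap without c-RelKO replicate 1. The log2 difference became -0.20 for Bcl2 without DKO replicate 1 and -1.01 for Bcl2 without DKO replicate 2.

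The remaining falls in the list of largest changes lie outside these groups or are listed markers of other cells. Zbtb10, a zinc finger gene, had 0.896 and 1.07 FPKM in DKO Treg, against 30.4 and 29.5 FPKM in c-RelKO Treg (log2 difference -3.96 ± 0.99, adjusted p = 0.0119). Ephx1, an epoxide hydrolase, had 5.48 and 6.8 FPKM in DKO Treg, against 97.3 and 80.7 FPKM in c-RelKO Treg (log2 difference -3.66 ± 0.71, adjusted p = 0.00284). Plcxd2 had 4.71 and 5.3 FPKM in DKO Treg, against 79.8 and 68.5 FPKM in c-RelKO Treg (log2 difference -3.64 ± 0.73, adjusted p = 0.00361). In each, the replicates were close to each other and the groups far apart. Lyz2, lysozyme of myeloid cells, had 2.86 and 6.34 FPKM in DKO Treg, against 33.2 and 172 FPKM in c-RelKO Treg (log2 difference -3.85 ± 1.20, adjusted p = 0.0317). Igj, the joining chain of plasma cells, had 0.19 and 0.153 FPKM in DKO Treg, against 5.59 and 26.1 FPKM in c-RelKO Treg (log2 difference -3.51 ± 1.16, adjusted p = 0.0398). Both were highest in c-RelKO replicate 2, whose myeloid markers summed to 2065 FPKM and B cell markers to 303 FPKM, and the part of other cells in them was not tested. Galectin genes were among the rises: Lgals3 had 193 and 299 FPKM in DKO Treg, against 23.4 and 22.7 FPKM in c-RelKO Treg (log2 difference 3.33 ± 0.46, adjusted p = 0.000463). Lgals7 had 87.7 and 58.2 FPKM in DKO Treg, against 7.19 and 4.33 FPKM in c-RelKO Treg (log2 difference 3.45 ± 0.45, adjusted p = 0.000335). Calls that were lost when a library was left out had a highest adjusted p of 0.0676 for Zbtb10 without DKO replicate 2; 0.247 for Igj and 0.224 for Lyz2 without c-RelKO replicate 2.

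The marker lists of other cells show where c-RelKO replicate 2 weighs on the comparison. Of 10 B cell markers 3 fell (median -2.19), and without that library 0 fell (median -0.63). Of 15 myeloid markers 4 fell, and 1 without it. The 7 erythroid markers had a median of -3.78 with no call, which turned to 0.82 without it, and the 7 MHC class II genes had a median of -1.27 with no call, and 0.089 without it. Of 6 plasma cell markers 2 fell, Sdc1 (-1.54 ± 0.22) and Igj (1 without that library), and of 9 NK and CD8 T cell markers 3 fell (Klrb1c, Eomes and Prf1) and 1 rose, Gzma, with 26.6 and 57.2 FPKM in DKO Treg, against 3.96 and 16.4 FPKM in c-RelKO Treg. For NK and CD8 T cell markers, 1 rose and 1 fell without c-RelKO replicate 2, and 0 rose and 3 fell with size factors. Of 8 killer cell lectin-like receptors 2 fell, Klrb1b (-1.19 ± 0.26) and Klrb1c (-2.19 ± 0.53), and 1 without that library. Heat shock genes gave no call among 10 (median -0.06), and whether handling of the cells differed between the groups was not tested. Of 10 transcripts known to stay in the nucleus or keep introns, 3 fell, Ccnl1 (-1.42 ± 0.30), Clk1 (-1.73 ± 0.43) and Clk4 (-0.71 ± 0.21). The highest adjusted p of calls lost without a library was 0.0741 for Clk1, 0.196 for Clk4 and 0.0981 for Klrb1c without c-RelKO replicate 1; 0.0768 for Klrb1b without c-RelKO replicate 2. The log2 difference became -1.12 for Klrb1c without c-RelKO replicate 1.

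The same genotypes were compared after stimulation. After 3 h with antibodies to CD3 and CD28, 1348 genes were called between DKO Treg and the 1 c-RelKO Treg library, 782 higher and 566 lower (11.7% of those tested, 6.78% and 4.91%). The lone library was assumed to vary like the other groups. Foxp3 was still low, with 6.34 and 8.31 FPKM in stimulated DKO Treg, against 245 FPKM in the stimulated c-RelKO Treg library (log2 difference -4.89 ± 0.61, adjusted p = 0.000253), and so were resting genes, of which 13 of 18 fell. Ccr7 had 66.6 and 50.4 FPKM in stimulated DKO Treg, against 1608 FPKM in the stimulated c-RelKO Treg library (log2 difference -4.77 ± 1.05, adjusted p = 0.00969).

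Cytokine genes diverged after stimulation. Of 17 type 2 genes 11 rose (median 4.29), and of 19 type 1 and cytotoxic genes 10 rose (median 2.64), beside a median of 0.10 over all genes. Il5 had 4799 and 2527 FPKM in stimulated DKO Treg, against 14.2 FPKM in the stimulated c-RelKO Treg library (log2 difference 7.84 ± 1.11, adjusted p = 0.000633). Il3, a growth factor of mast cells and basophils, had 2097 and 5224 FPKM in stimulated DKO Treg, against 4.19 FPKM in the stimulated c-RelKO Treg library (log2 difference 9.32 ± 0.85, adjusted p = 2.16e-05). Without stimulation Il3 had 0.806 and 0.753 FPKM in DKO Treg, against 2.47 and 0.0419 FPKM in c-RelKO Treg, so it was low in both genotypes. Csf2 (GM-CSF) had 1018 and 3091 FPKM in stimulated DKO Treg, against 2.48 FPKM in the stimulated c-RelKO Treg library (log2 difference 9.0 ± 0.76, adjusted p = 1.11e-05). Ifng, the type 1 cytokine, had 5804 and 15417 FPKM in stimulated DKO Treg, against 97.8 FPKM in the stimulated c-RelKO Treg library (log2 difference 6.58 ± 0.88, adjusted p = 0.000415). Il2 had 1237 and 3342 FPKM in stimulated DKO Treg, against 16.5 FPKM in the stimulated c-RelKO Treg library (log2 difference 6.86 ± 0.89, adjusted p = 0.000327).

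Of 25 TCR early genes, 2 fell after stimulation (Jun and Dusp1; median -0.29) and 16 without it, counts from arms of unequal size; the test of the change itself called 4 of the 25. Egr3 had 158 and 130.5 FPKM in stimulated DKO Treg, against 85.5 FPKM in the stimulated c-RelKO Treg library (log2 difference 0.74 ± 0.58, adjusted p = 0.468), and 2.3 and 2.02 FPKM in unstimulated DKO Treg. Zfp36 had 182 and 127 FPKM in stimulated DKO Treg, against 246 FPKM in the stimulated c-RelKO Treg library (log2 difference -0.69 ± 0.32, adjusted p = 0.191). The change in the genotype difference was tested gene by gene, stimulated minus unstimulated, in a test added after the data were seen: 66 genes were called (0.572%), 57 with a higher and 9 with a lower difference under stimulation (0.494% and 0.078%). Among them were Il3 (difference of 9.41 ± 1.09, adjusted p = 0.000988), Csf2 (difference of 7.97 ± 0.98, adjusted p = 0.00149), Egr3 (difference of 4.74 ± 0.74, adjusted p = 0.00933) and Zfp36 (difference of 2.06 ± 0.41, adjusted p = 0.0459). Of 15 NF-kB feedback genes, Tnip1 fell and Tnip3 rose after stimulation, and of 28 replication and mitosis genes 21 were higher.

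**Figure D4:**
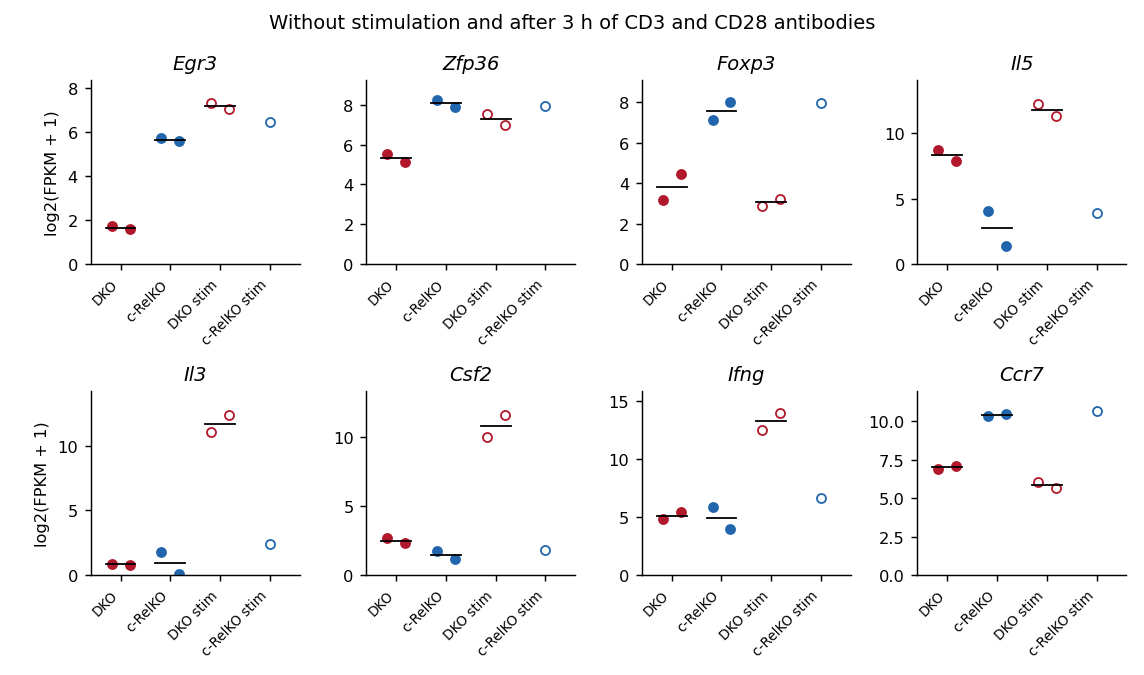
log2(FPKM + 1) (y axis) of 8 genes in each DKO and c-RelKO Treg library without stimulation (filled points) and after 3 h of stimulation (open points), with the mean of the log values where there are 2 libraries. Foxp3 and Ccr7 stay low in DKO Treg, Egr3 and Zfp36 are lowest in unstimulated DKO Treg, and Il3, Csf2 and Ifng are high in stimulated DKO Treg, with Il3 at 2097 and 5224 FPKM against 4.19 FPKM in c-RelKO Treg.

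To see whether the loss of p65 does the same when c-Rel is present, its difference in c-Rel-deficient Treg was compared with that of p65KO minus WT Treg. With c-Rel present, p65KO against WT Treg called 5 genes, 4 higher and 1 lower (0.0434%, 0.0347% and 0.00867% of those tested). Unlike the other counts, this one was not varied with a block or left-out libraries. It does not show that p65 loss has little effect when c-Rel is present. The test of the difference shares the DKO and c-RelKO libraries with the main comparison and is not independent of it. It called 220 genes, 127 with a higher and 93 with a lower difference in c-Rel-deficient cells (1.91%, 1.1% and 0.806% of those tested). Foxp3 had 139.7, 232 and 282 FPKM in p65KO Treg, against 129, 210.5, 344 and 351 FPKM in WT Treg (log2 difference -0.20 ± 0.38), groups that overlap, and the 2 effects of p65 loss differed (difference of -3.53 ± 0.63, adjusted p = 0.0129). Egr3 had 22.7, 19.7 and 68.2 FPKM in p65KO Treg, against 18.6, 20.5, 45.5 and 31.2 FPKM in WT Treg; its effects differed too (difference of -4.20 ± 0.59, adjusted p = 0.00368). Cd27 had 289, 180.2 and 199.6 FPKM in p65KO Treg, against 256, 169.6, 146 and 136 FPKM in WT Treg (difference of -3.17 ± 0.45, adjusted p = 0.00368). In these 3 genes the p65KO and WT libraries overlapped.

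Of the genes with a higher difference, Ifitm2 had 15.5, 17.8 and 25.2 FPKM in p65KO Treg, against 9.85, 9.7, 9.61 and 10.2 FPKM in WT Treg, so all p65KO libraries were above all WT libraries, and the effects of p65 loss differed (difference of 3.74 ± 0.27, adjusted p = 5.84e-06). Il5 had 0, 0.0721 and 2.8 FPKM in p65KO Treg, against 0, 0.0418, 1.95 and 0.197 FPKM in WT Treg (difference of 5.36 ± 1.14, adjusted p = 0.0338). Hrh4 had 2.24, 2.02 and 0.778 FPKM in p65KO Treg, against 1.4, 0.501, 0.238 and 0.107 FPKM in WT Treg (difference of 3.70 ± 0.47, adjusted p = 0.00211). Peg10, an imprinted gene derived from a retrotransposon, had 0, 0.0148 and 0.0962 FPKM in p65KO Treg, against 0, 0.0858, 0.0245 and 0.0938 FPKM in WT Treg; it had 8.42 and 7.27 FPKM in DKO Treg, against 0.0359 and 0.146 FPKM in c-RelKO Treg (difference of 3.04 ± 0.18, adjusted p = 1.71e-06). Igfbp7, a secreted binding protein, had 72.3 and 49.2 FPKM in DKO Treg, against 6.68 and 4.51 FPKM in c-RelKO Treg (difference of 3.66 ± 0.52, adjusted p = 0.0037). Of the 28 replication and mitosis genes 1 was called in this test, so a difference of the p65 effect was not shown for most of them; their median was 0.96 in p65KO minus WT Treg. Of 25 TCR early genes, 5 were called, all lower, as were 4 of the Treg signature genes, and none of the members of the 3 NF-kB lists was. In WT replicate 1 and p65KO replicate 1 Rel was far below its level in the other libraries of those genotypes; leaving out WT replicate 1 gave 295 calls, and leaving out 1 library of the 4 groups at a time gave 63 (without DKO Treg replicate 1) to 341 (without p65KO Treg replicate 1) calls.

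**Figure D5:**
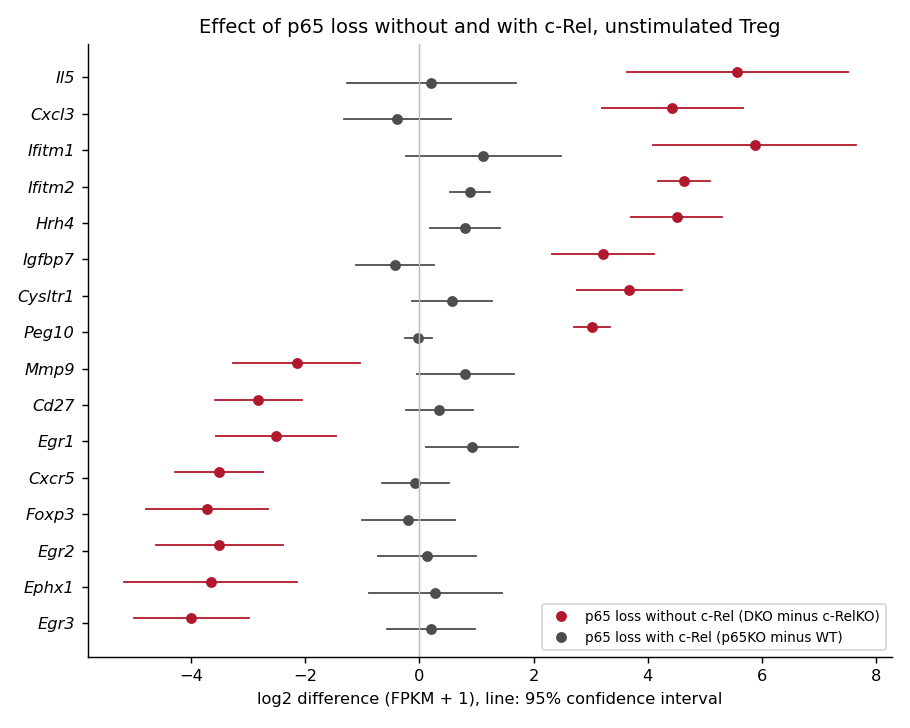
Effect of p65 loss on the log2(FPKM + 1) scale (x axis) without c-Rel (DKO minus c-RelKO, red) and with c-Rel (p65KO minus WT, grey) for the 16 named genes of the test of the difference (rows), with 95% confidence intervals. The grey points lie between -0.44 and 1.12, whereas the red ones lie between -4.0 and -2.15 or between 3.02 and 5.87.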

How the data were processed

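RNA of Treg from spleen and lymph node was sequenced from TruSeq RNA libraries, per the labels' protocols. The deposited values are FPKM per gene with confidence bounds, made by the authors with TopHat and Cufflinks on mm9, per the submitters' processing notes; no version, annotation or strand setting is stated there. Of 23235 symbols, 250 whose entries were not marked OK in every library were left out, 181 with several entries were summed, and 22985 were kept. The bounds lie 2 SD from the value and imply 15.4 to 52.8 M fragments per library; 70.5 to 74.4% of implied numbers below 15 lay within 0.02 of a whole number, so no count test was run.

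The test was limma 3.58.1 (R 4.3.3) on log2 values after adding a pseudocount of 1, with a mean trend and 1 mean for each of 10 groups over 21 libraries (11 residual degrees of freedom). It covered the 11532 genes that reached 1 FPKM in 2 or more libraries, with Benjamini-Hochberg adjustment. A fold change on this scale understates that of low genes. The 4 libraries treated with TAT-Cre were not used. The test was checked on simulated data. Size factors, other pseudocounts and filters, a replicate block and left-out libraries were alternatives.

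The libraries and the 34 gene lists were chosen with earlier results of these data known. Named genes were Rela, Rel and Foxp3, the 15 largest rises and 15 largest falls among calls with at least 5 FPKM, no overlap and a difference of at least 1 in both pairs, up to 4 genes of smallest p per list, and 8 per direction for the difference in p65 effect; others are said to be outside this rule or complete a count. Some members of the lists are not reported here by name. Figures and promoter matches were made with Python 3.11.15.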

Additional observations from a re-analysis of the deposited data

Results flagged for a closer look

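The effect of p65 loss differed between Treg without and with c-Rel in 16 named genes, by the test of the difference itself (limma, adjusted p under 0.05). Of these 16 calls, 5 were lost with a pseudocount of 0.1, 4 without WT replicate 4 and 3 without p65KO replicate 2. Some were also lost when 1 DKO or c-RelKO library was left out, which leaves 1 library in that group. On the log2 scale the effect without c-Rel was higher by 4.81 for Cxcl3, 4.75 for Ifitm1, 3.66 for Igfbp7, 3.11 for Cysltr1, 5.36 for Il5, 3.74 for Ifitm2, 3.70 for Hrh4 and 3.04 for Peg10. The difference was -4.20 for Egr3, -3.94 for Ephx1, -3.64 for Egr2, -3.53 for Foxp3, -3.43 for Cxcr5, -3.43 for Egr1, -3.17 for Cd27 and -2.95 for Mmp9. Cxcl3 had 115 and 31.3 FPKM in DKO Treg, against 3.18 and 0.941 FPKM in c-RelKO Treg, and Ephx1, an epoxide hydrolase, had 5.48 and 6.8 FPKM in DKO Treg, against 97.3 and 80.7 FPKM in c-RelKO Treg. Mmp9, a matrix protease of myeloid cells as well, was at low levels, with 0.755 and 0.234 FPKM in DKO Treg, against 3.29 and 8.91 FPKM in c-RelKO Treg, and myeloid markers summed to 2065 FPKM in c-RelKO replicate 2; their part in it was not tested.

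The difference between DKO and c-RelKO Treg itself differed between stimulated and unstimulated libraries in 12 genes that were named after their values were seen. The change, stimulated minus unstimulated, was 9.41 for Il3, 8.34 for Ccl3, 8.26 for Ccl4, 7.97 for Csf2, 7.24 for Il2, 6.62 for Ccl1, 6.36 for Ifng, 5.57 for Crabp2, 4.74 for Egr3, 4.48 for Egr2, 2.77 for Dusp2 and 2.06 for Zfp36. All rest on 1 stimulated c-RelKO library. Several of these calls were lost whichever DKO library of either state or unstimulated c-RelKO library was left out, which leaves 1 library in that group. Chemokine genes Ccl3, Ccl4 and Ccl1 moved with the cytokine genes Il3, Csf2, Il2 and Ifng in this list.

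In WT Treg, 1 of the 4 libraries stood far from the others for Il5, at 1.95 FPKM, against 0, 0.0418 and 0.197 FPKM; chance flags about 1 in 20 groups in this way.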

How the results depend on the processing

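Of 130 genes named for DKO against c-RelKO Treg, 121 were called, 68 of these under every alternative that tested them, and none of the called genes changed sign under any of them. The total of 2935 calls became 937 to 3918 with 1 of the 4 libraries or WT replicate 1 left out (680 to 2945 higher, 257 to 973 lower), the lowest without DKO replicate 2 and the highest without WT replicate 1. Size factors gave 1195 higher and 1044 lower. Same-numbered DKO and c-RelKO libraries deviated together (r = 0.387 over 11532 genes), but 2 pairs do not show that the numbers pair the samples. With the replicate block by run, 6958 genes were called (4904 higher, 2054 lower), and 5930 (4103 and 1827) when c-RelKO replicate 2 was left out too, an alternative chosen after seeing the data. Gata3, Il2ra, Nfkb2 and Tnfaip3, which did not pass in the fit of all 21 libraries without a block, passed with it (adjusted p = 0.0104, 0.0137, 0.000682 and 3.87e-06). In a fit of the 4 libraries alone with the replicate number as block, 1216 were lower. The block by run gave 4433 calls for the difference in p65 effect, 5145 after stimulation and 1534 for the change with stimulation.

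The 220 calls for the difference in p65 effect became 334 with no filter, 141 with a filter of 5 FPKM, 336 without 3 libraries with raised markers of other cells (chosen after seeing the data) and 63 to 341 with 1 library left out. The 1348 calls after stimulation became 578 to 976 with 1 stimulated DKO library left out, and the 66 for the change with stimulation 12 to 58 with 1 DKO library of either state or 1 unstimulated c-RelKO library left out. With 1 of the 4 libraries left out, 9 to 12 TCR early genes, 7 to 8 resting genes, 3 to 6 NF-kB feedback genes and 4 to 8 Treg signature genes fell, and 15 to 24 replication and mitosis genes and 5 to 6 type 2 genes rose. The genes that changed sign were not called. Rel had -0.15 with size factors, -0.037 without the 3 libraries and -0.037 to 0.13 with 1 library left out. Il4 had -1.21 without the 3 libraries, -0.93 with the run block and without c-RelKO replicate 2, and -1.21 to 2.49 with 1 library left out. Il3 had 0.54 with a pseudocount of 0.1 and -0.96 to 0.77 with 1 library left out. That range was -0.22 to 0.082 for Tnfrsf18 and -0.53 to 0.074 for Nfkb1. The cause of these changes was not tested. Values under 1 FPKM rest on few fragments at these depths.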
